A study of Mus musculus with 51 samples.

Results

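The Gab1 locus was followed through every peak and window of the study that lay between 80.75 and 80.90 Mb of mouse chromosome 8 (GRCm38). Position alone decided what was included. The locus comprised 12 of the 150793 peaks in 6 tables of allelic read counts, of which 9 were informative (at least 20 reads in 1 wild-type allele column) among 90111 informative peaks, and 150 of the 2462755 windows of 1 kb in a table of total signal. Chromatin of mouse embryos at embryonic day 6.5 had been digested with micrococcal nuclease and immunoprecipitated for H3K4me3, a mark of active start sites, H3K36me3, which is laid down over transcribed gene bodies, and H3K27me3, the repressive mark of the Polycomb complexes. Epiblast, which forms the embryo proper, and extra-embryonic ectoderm (ExE), a precursor of the placenta, were dissected apart, and 4 epiblasts or 8 ExE were pooled. The authors divided the chromatin of a pool among the antibodies and inputs. Libraries of different marks can therefore come from the same embryos and are not independent samples of them.

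The embryos were F1 hybrids whose parental alleles could be told apart by sequence variants, and crosses are written with the mother first. B6/CAST had C57BL6/Babr mothers and CAST/Ei fathers, and CAST/B6 was the reciprocal cross. In matDKO/CAST the mothers carried floxed Dnmt3a and Dnmt3b on a mixed background of B6 and 129 and deleted both genes in the growing oocyte through Zp3-cre, so their embryos inherited a deleted maternal copy of each and a maternal genome without the oocyte's DNA methylation, and the fathers were CAST/Ei. Each of 3 marks in 2 tissues and 3 crosses had 2 libraries, which gave 36 libraries beside 15 inputs. A library held 0.271 to 6.82 M reads assigned to an allele in autosomal peaks and 2.09 to 22.9 M reads in windows (7.17 to 90.6 M for inputs). The labels do not say which mothers or litters entered which pool, so the p-values measure the spread between pools of embryos.

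Imprinted genes are expressed mainly from 1 parental copy. Most imprints are DNA methylation set in a germ cell, while noncanonical imprints are known to be inherited from the oocyte as H3K27me3 and to persist mainly in extra-embryonic tissue. Gab1 encodes a docking protein that is phosphorylated by receptor tyrosine kinases such as Met and Egfr and recruits Grb2, the phosphatase Ptpn11 and the regulatory subunits of PI3 kinase, and mice that lack it have placental defects. The reciprocal crosses ask whether a mark follows the parent or the strain, and matDKO/CAST asks whether it needs methylation from the oocyte. The label of matDKO/CAST was checked at 3 classical imprints, where the paternal share of H3K4me3 reads in ExE at Peg3, Kcnq1ot1 and Snrpn lay between 92.9 and 99.8% in wild-type libraries and between 46.6 and 54.0% in matDKO/CAST. Input signal over the whole of Dnmt3b, which does not resolve the deleted part, overlapped between matDKO/CAST (0.447 to 0.564 RPKM, which are reads scaled to window length and library size) and wild type (0.448 to 0.584 RPKM).

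Gab1 occupies chr8:80764438-80880519 on the minus strand (GENCODE vM21). A processed pseudogene, Gm7997, lies inside it, and an antisense gene, Gm31105, overlaps its 5′ end at chr8:80879940-80881169. An H3K4me3 peak covered the start site in both tissues, over 14000 bases in ExE and 4500 in epiblast, and is called the start-site peak. The ExE peak joins stretches that B6/CAST lists apart, at 80868001 to 80875500 and at 80877001 to 80882000. CAST/B6 lists a single peak there, from 80869501 to 80882000. The stretch inside the gene holds RefSeq predicted starts of Gab1 at 80869169 and 80868599. Another H3K4me3 peak, the intronic peak, was centred 23.8 kb further along the gene, from 80852500 to 80861000 in ExE and from 80853000 to 80860500 in epiblast, as the deposited tables give them in their start and end columns. The name given to a peak can hold a shorter stretch, and that of the ExE start-site peak stops at 80875500, short of the start site. Wild-type libraries held 68 to 161 reads of any kind in the named stretch but 348 to 548 allelic reads in the peak, so the columns were used. The intronic peak lay wholly within intron 1, which runs from 80800396 to 80879531. GENCODE places no transcript start in the intronic peak, whereas RefSeq predicts Gab1 starts at 80860012 and 80858702, which are 20507 and 21817 bases from the 5′ end of the gene. These are predicted models, and transcription was not measured here.

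The sequence in front of the annotated start is shown beside those in front of the predicted intronic starts, because H3K4me3 lay on both alleles at the first and mainly on the paternal allele at the other. All are read 5′ to 3′ on the minus strand of GRCm38 from the RefSeq assembly, with CpG dinucleotides in capitals.
Gab1 start site, chr8:80880520-80880769: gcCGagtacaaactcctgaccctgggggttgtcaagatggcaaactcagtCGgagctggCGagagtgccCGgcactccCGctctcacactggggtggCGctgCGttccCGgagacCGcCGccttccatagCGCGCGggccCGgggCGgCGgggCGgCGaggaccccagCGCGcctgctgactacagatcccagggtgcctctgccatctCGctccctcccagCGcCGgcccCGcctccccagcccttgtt
Intronic peak, chr8:80858703-80859002: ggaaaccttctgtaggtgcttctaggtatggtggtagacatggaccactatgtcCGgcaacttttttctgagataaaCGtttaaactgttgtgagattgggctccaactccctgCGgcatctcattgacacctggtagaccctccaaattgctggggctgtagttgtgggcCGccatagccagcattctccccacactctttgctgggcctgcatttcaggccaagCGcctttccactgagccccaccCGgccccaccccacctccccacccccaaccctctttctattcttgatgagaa
Intronic peak, chr8:80860013-80860312: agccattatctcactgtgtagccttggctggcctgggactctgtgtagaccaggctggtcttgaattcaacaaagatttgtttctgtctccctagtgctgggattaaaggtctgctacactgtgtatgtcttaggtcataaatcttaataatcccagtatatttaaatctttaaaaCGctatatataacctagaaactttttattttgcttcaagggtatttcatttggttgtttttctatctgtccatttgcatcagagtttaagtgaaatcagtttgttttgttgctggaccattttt
The 250 bases at the start site held 24 CpGs and 70.8% G and C. Those at chr8:80858703-80859002 held 6 CpGs in 300 bases and 54.0% G and C, and those at chr8:80860013-80860312 held 1 CpG in 300 bases and 36.7% G and C. In the order shown, 0, 35 and 167 bases of the sequences were masked as repeats in the reference. The promoter window of Gab1 in RefSeq (250 bases before to 50 after the start) held 26 CpGs, a number reached by 16.9% of 32851 such promoters. At least 6 CpGs were found in 56.4% of them and at least 1 in 94.6%. The intronic stretches lie wholly before their predicted starts, so they are not placed like these promoter windows. Of the 1 kb windows, those at the start site held 89 and 85 CpGs, against a median of 11 over the 150 windows of the locus. The windows that hold the intronic sequences had 21 (80858001 to 80859000) and 6 (80860001 to 80861000), and the one between them, which holds almost none of either, had 28.

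At the intronic peak, H3K4me3 in ExE lay almost entirely on the paternal allele in every library. In B6/CAST, 394 paternal and 34 maternal reads were counted in replicate 1 (92.1% paternal, 95% Wilson interval 89.1 to 94.3) and 231 and 15 in replicate 2 (93.9%, 90.2 to 96.3). CAST/B6 gave 221 against 16 (93.2%, 89.3 to 95.8) and 219 against 6 (97.3%, 94.3 to 98.8). Reads of matDKO/CAST numbered 246 against 34 (87.9%, 83.5 to 91.2) and 173 against 27 (86.5%, 81.1 to 90.6). The peak was paternal whichever strain was the father, and both matDKO/CAST libraries lay below the 4 wild-type libraries. The intervals cover counting error only.

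**Figure D1:**
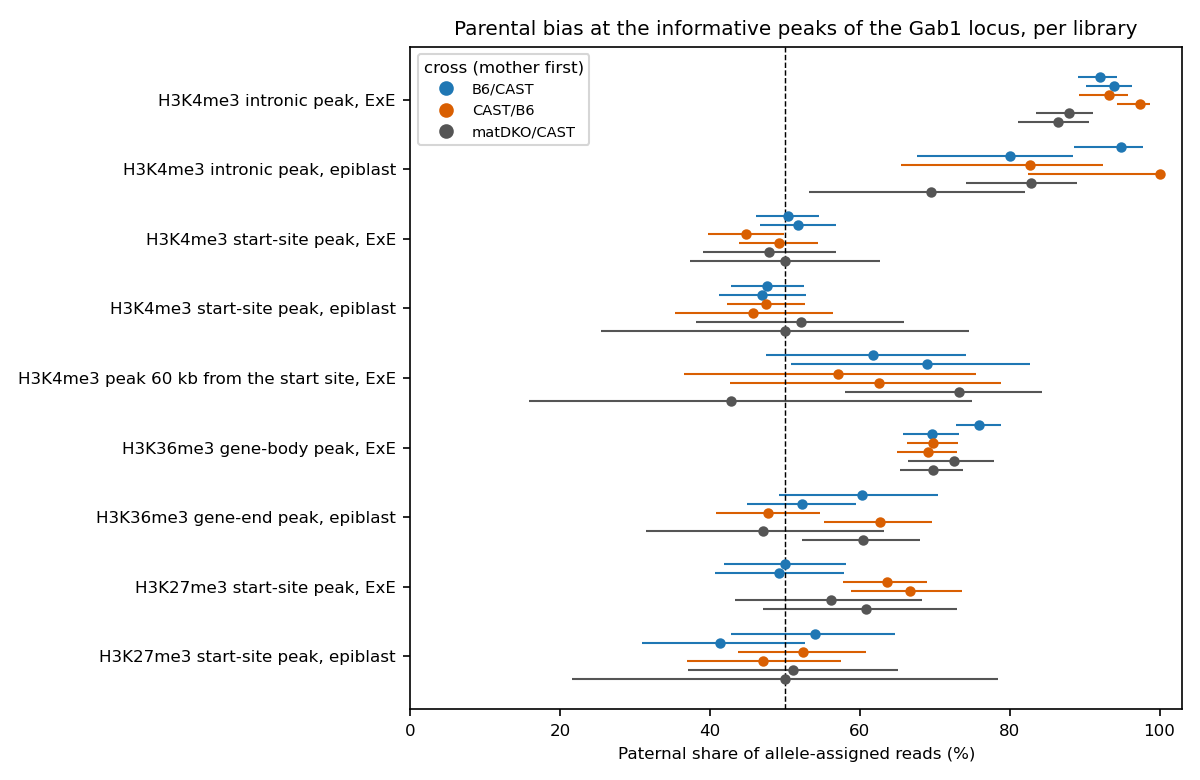
Paternal share of allele-assigned reads (x axis, percent) at the 9 informative peaks of the Gab1 locus (rows), with 1 point per library coloured by cross, 95% Wilson intervals and a dashed line at 50%. The 6 points of the intronic peak in ExE lie between 86.5 and 97.3%, those of the H3K36me3 gene-body peak in ExE between 69.1 and 75.9%, and those of the start-site H3K4me3 peaks between 44.8 and 52.2%.

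In a fit of both wild-type crosses by edgeR's quasi-likelihood test, the paternal allele exceeded the maternal one by 3.97 ± 0.15 (SE) on the log2 scale (adjusted p = 1.12e-28), and the strain term of -0.27 did not pass (adjusted p = 0.392). Leaving out any single wild-type library moved the strain term to between -0.73 and -0.018. Of 23211 informative ExE peaks, 74 (0.319%) were called imprinted, meaning that both reciprocal crosses passed with the same parent higher. The intronic peak was among them and among the 19 (0.0819%) that also passed in matDKO/CAST. The difference in bias between matDKO/CAST and B6/CAST was -0.82 ± 0.31 (adjusted p = 0.753, unadjusted p = 0.0168), a contrast that 0.892% of the peaks passed. For matDKO/CAST the authors added reads of the 129 genome to the maternal side alone, and this step and the cross cannot be told apart. Reads that could be assigned to an allele made up 38.0 to 41.4% of those in the peak in wild type and 38.8 and 40.9% in matDKO/CAST.

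In epiblast the same peak held far fewer reads and also leaned to the paternal allele. Replicates 1 and 2 of B6/CAST had 93 paternal against 5 maternal reads (94.9%) and 44 against 11 (80.0%). Replicates 2 and 3 of CAST/B6 had 24 against 5 (82.8%) and 18 against 0, and by a limit of 3 counts 0 of 18 allows a maternal share of up to 16.7%. For matDKO/CAST the counts were 82 against 17 (82.8%) and 25 against 11 (69.4%). All 6 libraries favoured the father. By edgeR's quasi-likelihood test the log2 ratio was 3.08 ± 0.50 in B6/CAST (adjusted p = 0.0105), 3.28 ± 0.74 in CAST/B6 (adjusted p = 0.0202) and 2.01 ± 0.31 in matDKO/CAST (adjusted p = 5.22e-08). The shares of all informative epiblast peaks that passed these fits were 1.67%, 1.56% and 7.17%. The peak was 1 of 22 imprinted among 20328 informative epiblast peaks (0.108%) and 1 of 6 (0.0295%) that also passed in matDKO/CAST.

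These epiblast calls rested on few reads. Under DESeq2 the adjusted p became 0.181 in CAST/B6 and 0.0637 in matDKO/CAST. With 1 library left out, edgeR gave an adjusted p of 0.0840 in B6/CAST without replicate 1, of 0.107 and 0.265 in CAST/B6 without replicate 2 and 3, and of 0.967 and 0.0918 in matDKO/CAST without replicate 1 and 2. The fit over both wild-type crosses gave 3.17 ± 0.46 (adjusted p = 3.21e-04), and 2.65 with an adjusted p of 0.0981 without replicate 3 of CAST/B6.

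Whether the paternal excess was stronger in ExE than in epiblast could not be told from these libraries. The log2 ratio of paternal to maternal reads, with 0.5 added to each count, averaged 4.06 ± 0.70 (SD, n = 4) in wild-type ExE and 3.35 ± 1.57 (SD, n = 4) in wild-type epiblast. The difference of 0.71 was within the spread (two-sided exact permutation test, p = 0.486). Over the 3 pairs of libraries with the same cross and number it was 1.43 (exact permutation test, p = 0.5, where 0.25 is the smallest possible). In replicate 3 of CAST/B6 epiblast, with 0 maternal reads, the ratio is set by the added 0.5, and without that library the difference was 1.33 (exact permutation test, p = 0.171). It was 0.24 without replicate 2 of B6/CAST epiblast, 0.31 without replicate 2 of CAST/B6 epiblast and 0.37 without replicate 2 of CAST/B6 ExE, and no such omission passed.

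The start-site peak, read in the same libraries, was shared evenly between the alleles. Counts in ExE were 276 paternal against 272 maternal and 193 against 180 in B6/CAST, 163 against 201 and 171 against 177 in CAST/B6, and 56 against 61 and 28 against 28 in matDKO/CAST. These ExE counts cover the joined peak, so some come from the stretch inside the gene. How much of the matDKO/CAST ExE counts lay at the start site itself was not resolved. In epiblast, where the peak holds no part of that stretch, the paternal share ran from 45.7 to 52.2%. No fit passed at this peak, and the parent effect of both wild-type crosses was -0.08 ± 0.08 in ExE (adjusted p = 0.997) and -0.16 ± 0.15 in epiblast (adjusted p = 1.00).

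Within a library, the log2 ratio of the intronic peak exceeded that of the start-site peak in 6 of 6 ExE libraries, by 3.68 on average and by 2.66 to 5.13. The start-site ratio in ExE is that of the joined peak. In epiblast it did so in 6 of 6 libraries, by 2.90 on average and by 1.15 to 5.46. Each gave p = 0.0312 in a two-sided exact sign-flip permutation test, the smallest value that 6 libraries allow, and the same after adjustment over these 2 tests. Leaving out any library makes 0.0625 the smallest p that can be reached, and the 4 wild-type libraries alone gave 0.125, again the smallest.

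The start-site values of matDKO/CAST rested on fewer assigned reads. Assigned reads made up 20.2 to 29.7% of the reads there in wild type, 6.96 and 8.83% in matDKO/CAST ExE and 3.63 and 3.90% in matDKO/CAST epiblast. Total signal was 17.6 and 17.8 RPKM in matDKO/CAST ExE and 21.1 and 15.4 RPKM in matDKO/CAST epiblast, within the wild-type range of 15.1 to 23.4 RPKM. Variants that 129 shares with CAST were left out in this cross.

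The smaller H3K4me3 peaks of the locus gave no call. A peak 60 kb along the gene (80818500 to 80823000, also in intron 1) was listed only in B6/CAST ExE and held 3 to 30 paternal and 4 to 18 maternal reads a library. The paternal allele was higher there in 5 of 6 libraries, with a parent effect of 0.71 ± 0.30 (adjusted p = 0.697), and replicate 3 of matDKO/CAST, with 3 against 4 reads, was the exception. RefSeq predicts Gab1 starts at 80821680 and 80821668 within it. Peaks at 101 kb in ExE and at 10 kb in epiblast, and an H3K36me3 peak at 80873000 to 80876500 in epiblast, had too few reads to be informative.

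H3K36me3 covered nearly the whole gene in ExE, in a peak from 80759000 to 80873500 that ended short of the start site. It was paternally biased in each of the 6 ExE libraries, with less tilt than the intronic H3K4me3. B6/CAST had 606 paternal against 192 maternal reads (75.9%) and 408 against 178 (69.6%). CAST/B6 had 478 against 207 (69.8%) and 347 against 155 (69.1%). The matDKO/CAST libraries, with 169 against 64 (72.5%) and 320 against 139 (69.7%), fell within the wild-type range. By edgeR the joint parent effect was 1.32 ± 0.07 (adjusted p = 2.42e-61), and each cross passed alone, at 1.52 ± 0.09 (B6/CAST), 1.12 ± 0.10 (its reciprocal) and 1.42 ± 0.15 (matDKO/CAST), where 5.69%, 2.23% and 0.677% of all informative peaks did. The CAST-over-B6 effect of 0.20 ± 0.07 did not pass (adjusted p = 0.0530). Among 7980 informative H3K36me3 peaks of ExE, 20 (0.251%) were imprinted and 7 (0.0877%) also passed in matDKO/CAST, and the Gab1 body was among both. The bias of matDKO/CAST differed from that of B6/CAST by -0.10 ± 0.18 (adjusted p = 1.00, a contrast passed by 0.363% of peaks), a value that turned to 0.17 without replicate 1 of B6/CAST and to 0.11 without replicate 3 of matDKO/CAST.

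In epiblast, H3K36me3 was informative only over the last part of the gene (80761000 to 80803000), and the paternal share there ran from 47.1 to 62.7%. The parent effect was 0.27 ± 0.13 by edgeR's test (adjusted p = 0.999, unadjusted p = 0.0341). Leaving out any single wild-type library moved it to between 0.077 and 0.52. Of 11076 informative H3K36me3 peaks of epiblast, 17 (0.153%) passed for the parent, and this peak was not among them. Its ExE counterpart spans 114500 bases against 42000 here, so the shares of the tissues come from different stretches of the gene.

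H3K27me3 did not mark the intronic peak in either tissue. Its mean over that peak was 0.120 to 0.198 RPKM in wild-type libraries and 0.241 to 0.376 RPKM in matDKO/CAST, against 0.372 to 0.614 RPKM in the inputs. The mark lay around the start site instead, in a peak of 22500 bases in ExE (80874000 to 80896500, reaching upstream of the gene) and of 7500 bases in epiblast.

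The ExE reads of that H3K27me3 peak were even in B6/CAST, with 70 paternal against 70 maternal and 62 against 64. They leaned to the father in CAST/B6, with 178 against 102 (63.6%, 57.8 to 69.0) and 102 against 51 (66.7%, 58.9 to 73.6). In matDKO/CAST they numbered 32 against 25 and 31 against 20. In raw share both CAST/B6 libraries, whose fathers were B6, lay above every library of the other crosses. With library totals taken into account, the matDKO/CAST fit gave 0.76 ± 0.30 and did not pass (adjusted p = 0.215, unadjusted p = 0.0144). CAST/B6 alone passed at 0.86 ± 0.16 (adjusted p = 1.31e-05), where 21.8% of 18592 informative peaks did, and B6/CAST at 0.06 ± 0.18 did not (adjusted p = 0.896), so the peak was not called imprinted. The fit of both crosses gave a parent effect of 0.46 ± 0.12 (adjusted p = 0.00650) and a CAST-over-B6 effect of -0.39 ± 0.12 (adjusted p = 0.0111), which 7.27% and 23.3% of the peaks passed. Under DESeq2 neither passed (adjusted p = 0.249 for the parent and 0.172 for the strain). Without replicate 1 or 2 of B6/CAST the parent effect had an adjusted p of 0.141 or 0.0583 and the strain effect one of 0.0741 or 0.0841, while the effects themselves were 0.43 or 0.48 for the parent and -0.41 or -0.38 for the strain. The epiblast peak, with 4 to 67 paternal and 4 to 61 maternal reads a library, passed in no fit.

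In total signal, without regard to the allele, H3K4me3 of wild-type ExE and epiblast did not overlap at the intronic peak and overlapped at the start site. The mean H3K4me3 of the intronic peak was 7.47 and 5.58 RPKM in B6/CAST ExE and 4.43 and 6.12 RPKM in CAST/B6 ExE. Epiblast gave 1.77 and 1.07 RPKM in B6/CAST and 0.740 and 1.34 RPKM in CAST/B6. The groups did not overlap, at 5.90 ± 1.26 (SD, n = 4) against 1.23 ± 0.43 (SD, n = 4) RPKM, or 4.79-fold, with inputs at 0.372 to 0.614 RPKM. The two-sided exact permutation test gave p = 0.0286, the smallest that 4 against 4 libraries allow, and 0.0514 after adjustment over 9 pairings of region and mark. Over the start-site peak, taken at its extent in epiblast, the means were 19.6 ± 2.70 (SD, n = 4) and 19.0 ± 4.04 (SD, n = 4) RPKM and the libraries overlapped (exact permutation test, p = 0.829). In a dissected tissue, fewer cells with a mark and less of it per cell cannot be told apart.

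**Figure D2:**
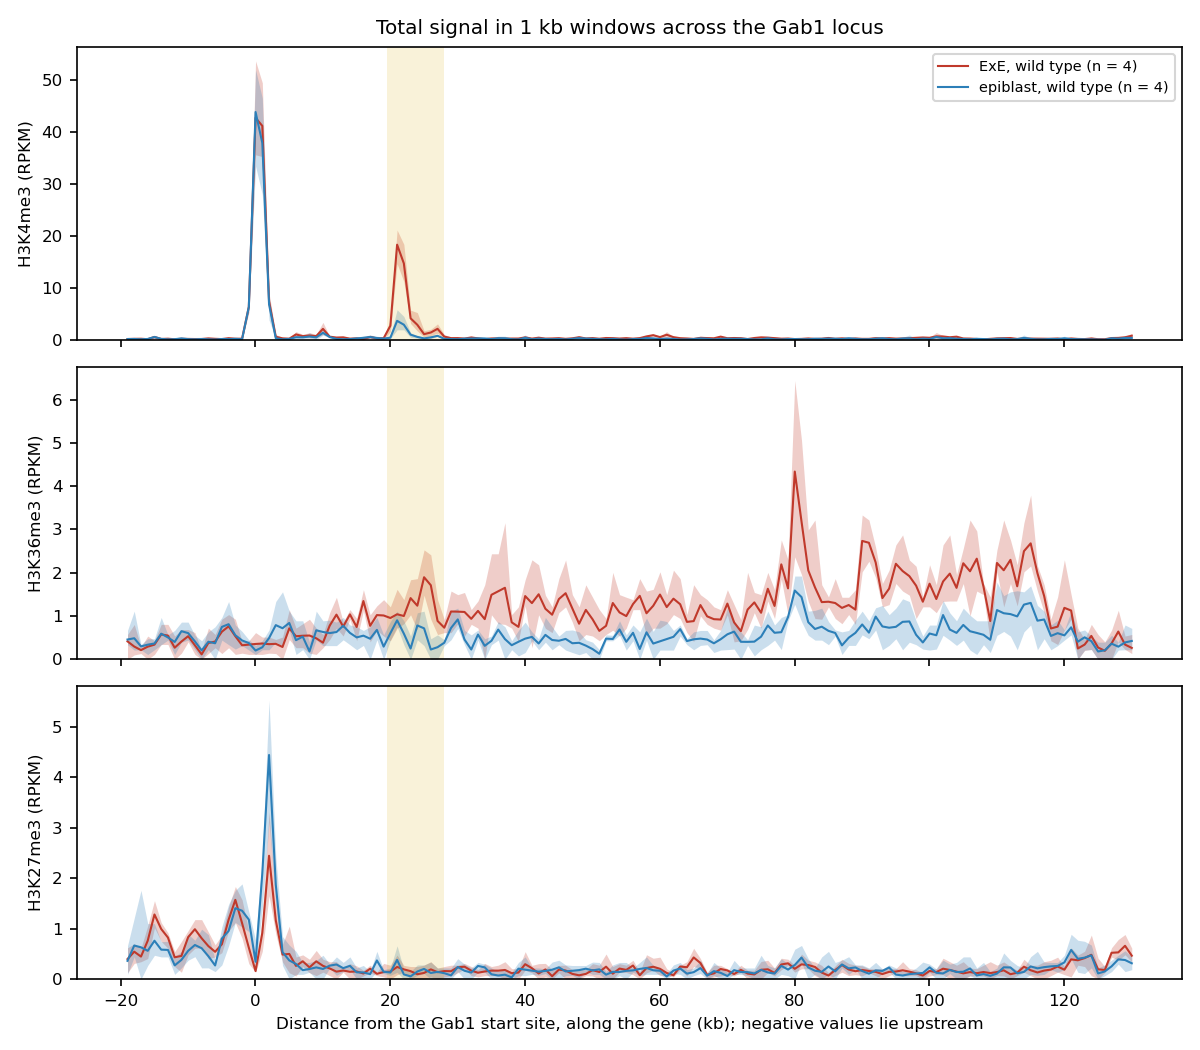
Total signal of H3K4me3, H3K36me3 and H3K27me3 (RPKM in 1 kb windows) against distance along Gab1 from its start site (kb, upstream negative). Lines are means of 4 wild-type libraries of ExE (red) and epiblast (blue), shading runs from the lowest to the highest library and the yellow band marks the intronic peak of ExE: H3K4me3 is 42.7 and 43.9 RPKM in the start-site window and higher in ExE in the band, and H3K36me3 is mostly higher in ExE along the gene.

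Window by window, limma called 10 of the 24 H3K4me3 windows tested higher in ExE and 0 lower, where 23.0% of all 143154 windows were higher and 16.8% were lower. At an unadjusted p under 0.05, 12 were higher and 0 lower, and edgeR on reads recovered from the RPKM called 11 higher and 0 lower. Windows were tested if their mean over the libraries was at least 0.5 RPKM, and 5 of the 10 had a wild-type epiblast mean under that, so they passed through their level in ExE. Without this filter 6 were called, all in the intronic peak. Of the 10 windows, 8 lay in the intronic peak and the others in the peak 60 kb along the gene, at 80819001 to 80820000 and 80821001 to 80822000. The window at 80859001 to 80860000 had 19.9 and 17.5 RPKM in B6/CAST ExE, 14.6 and 21.1 RPKM in CAST/B6 ExE, 5.76 and 2.39 RPKM in B6/CAST epiblast and 1.90 and 4.48 RPKM in CAST/B6 epiblast. Its difference on the log2(RPKM + 0.5) scale, which understates the change of low windows, was 2.28 ± 0.21 (adjusted p = 1.65e-21), and the next window, 80858001 to 80859000, gave 2.20 ± 0.21 (adjusted p = 7.95e-20). At the 5′ end of the gene the window at 80880001 to 80881000 differed by -0.03 ± 0.20 (adjusted p = 0.922), a value that was 0.00048 with TMM factors.

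Purity of the dissection was read from H3K4me3 in the start-site windows of marker genes. Of 6 ExE markers, 3 were higher in wild-type ExE (Bmp4 by 1.55, Cdx2 by 1.12 and Tfap2c by 0.81 on the log2 scale). Eomes differed by -0.07 (adjusted p = 0.813 by limma). Esrrb was lower by 0.82 but weak in both tissues. Its window held 0.125 to 0.574 RPKM in wild-type ExE and 0.759 to 1.77 RPKM in wild-type epiblast. Elf5 was too low to be tested. With so little signal, the windows of Esrrb and Elf5 say little about purity. Of 6 epiblast markers, 5 were lower in ExE, with Pou5f1 at -2.45. Their summed signal was 62.5 to 104 RPKM in wild-type ExE and 194 to 257 RPKM in wild-type epiblast, and that of the ExE markers 100.1 to 127 and 65.6 to 91.6 RPKM. Of 6 markers of visceral endoderm, which could adhere to either tissue, 3 were also higher in ExE (Ttr, Apoa1 and Hnf4a), none of the 6 was at 0 in a wild-type ExE library while Apoa4 reached 0 in epiblast, and their summed signal was 25.1 to 39.8 RPKM in ExE and 14.3 to 28.3 RPKM in epiblast. Their part in the difference at the intronic peak was not tested.

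**Figure D3:**
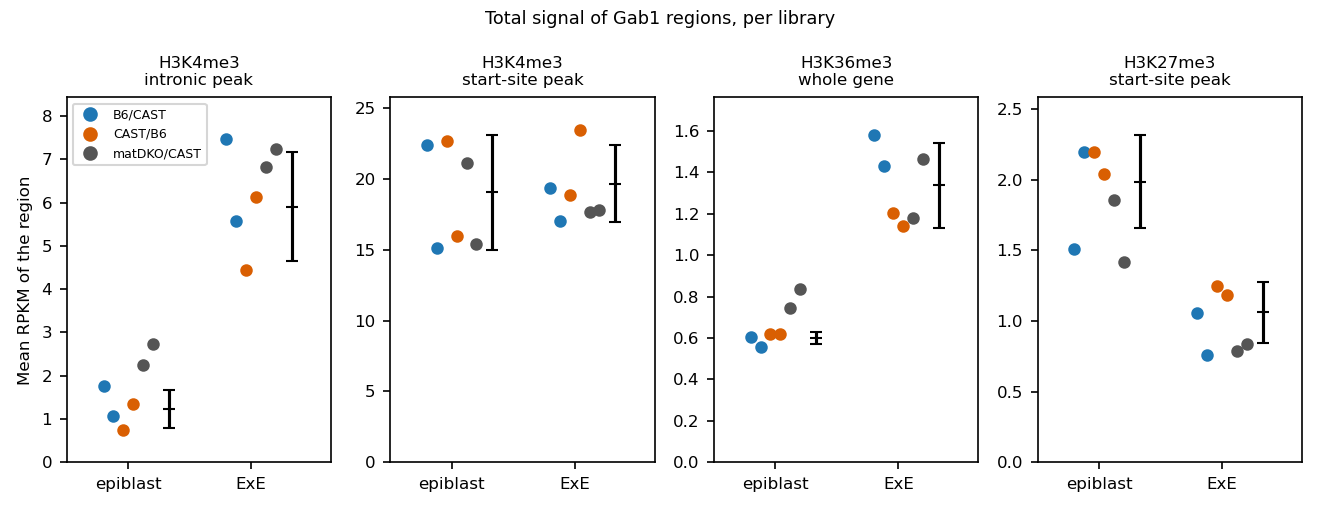
Mean RPKM of 4 regions of Gab1 (panels) in epiblast and ExE, with 1 point per library coloured by cross and, in black, the mean ± SD of the 4 wild-type libraries. Intronic H3K4me3 and whole-gene H3K36me3 are higher in every ExE library than in any epiblast library, start-site H3K4me3 overlaps, and start-site H3K27me3 is higher in every epiblast library.

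H3K36me3 over the whole gene was 1.58 and 1.43 RPKM in B6/CAST ExE and 1.20 and 1.14 RPKM in CAST/B6 ExE. In epiblast it was 0.607 and 0.555 RPKM in B6/CAST and 0.618 and 0.621 RPKM in CAST/B6, against 0.508 to 0.588 RPKM in inputs. The groups did not overlap, at 1.34 ± 0.20 (SD, n = 4) against 0.600 ± 0.031 (SD, n = 4) RPKM or 2.23-fold (exact permutation test, p = 0.0286, 0.0514 adjusted over 9), and wild-type epiblast was close to input. By limma 11 of 123 windows were higher in ExE and 0 lower, where 0.736% of 578883 windows were higher and 0.0983% lower. None was lower at an unadjusted p under 0.05 or by edgeR, and 111 were above 0, with a median of 0.70 against 0.13 over all windows tested. The count of 11 was unstable. Of these windows, 4 had a wild-type epiblast mean under the 0.5 RPKM needed for testing and so passed through their level in ExE, and without that filter 1 window was called. The count was 1 with a pseudocount of 0.1 RPKM, 39 by edgeR and 5 with TMM factors. It ran from 1 to 42 with 1 library left out, at 1 to 6 without any 1 of the 8 wild-type libraries and at 42 without either matDKO/CAST epiblast library.

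In ExE, H3K36me3 was lower between the start site and the intronic peak than on the gene-end side of that peak. From 80862001 to 80877000 it was 0.629 to 0.824 RPKM in the 6 ExE libraries, and on the gene-end side of the intronic peak, from 80764001 to 80852000, it was 1.27 to 1.79 RPKM. The ratio of the latter to the former was 1.60 to 2.46 in ExE, 0.811 to 1.70 in epiblast and 0.928 to 1.42 in inputs. These stretches were chosen after the profile was seen, so no test was made. The highest ExE window, 80800001 to 80801000, holds exon 2 (80800101 to 80800395), with 6.44 and 5.31 RPKM in B6/CAST, 2.37 and 3.24 RPKM in CAST/B6 and 5.65 and 3.18 RPKM in matDKO/CAST, and with 1.27 to 1.92 RPKM in wild-type epiblast.

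H3K27me3 over the same start-site stretch went the other way, with 0.758 to 1.25 RPKM in wild-type ExE and 1.51 to 2.20 RPKM in wild-type epiblast. The means were 1.06 ± 0.22 (SD, n = 4) and 1.99 ± 0.33 (SD, n = 4), and the groups did not overlap (exact permutation test, p = 0.0286, 0.0514 adjusted over 9). By limma 2 of 19 windows were lower in ExE, where 3.26% of 530428 windows were and 11.8% were higher. None at the locus was higher (2 at an unadjusted p under 0.05 and 0 by edgeR). The window at 80879001 to 80880000 gave -0.88 ± 0.23 (adjusted p = 0.00655) and that at 80878001 to 80879000 gave -0.75 ± 0.22 (adjusted p = 0.0143). TMM factors moved the median over all windows from 0.23 to 0.01 for H3K27me3 and from 0.13 to 0.0022 for H3K36me3, and the count at the locus became 4. It was 0 without the filter, 0 without replicate 2 of B6/CAST epiblast or ExE and 1 without replicate 2 of CAST/B6 ExE.

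By limma as fitted, no total signal of the locus was called different between matDKO/CAST and B6/CAST. In matDKO/CAST the intronic peak had 6.82 and 7.24 RPKM of H3K4me3 in ExE, within the wild-type ExE range, and 2.24 and 2.74 RPKM in epiblast, above each wild-type epiblast library. Whole-gene H3K36me3 was 1.18 and 1.46 RPKM in matDKO/CAST ExE, within the wild-type ExE range, and 0.745 and 0.838 RPKM in matDKO/CAST epiblast, above each wild-type epiblast library and each input. Neither limma nor edgeR called any window of the locus between matDKO/CAST and B6/CAST in the 3 marks and 2 tissues, although limma called 6 H3K36me3 windows in epiblast without replicate 3 of matDKO/CAST. The shares called over all windows were 0.155% and 0.219% for H3K4me3 in ExE and epiblast, 0.00242% and 0.0019% for H3K36me3, and 0.00339% and 0.016% for H3K27me3. At an unadjusted p under 0.05 limma gave 0 and 5 windows for H3K4me3 in ExE and epiblast, 4 and 20 for H3K36me3, and 0 and 1 for H3K27me3. The epiblast difference at 80859001 to 80860000 was 0.93 (adjusted p = 0.212), with 6.98 and 8.23 RPKM in matDKO/CAST. Summed epiblast markers were 153 to 232 RPKM in these matDKO/CAST libraries, and summed visceral endoderm markers 19.5 to 29.3 RPKM, and their part was not tested.

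The peaks whose allelic pattern was most like that of the intronic peak lay at Slc38a4, Gm32885, Platr20, Sfmbt2 and Smoc1. Likeness was the distance between log2 paternal ratios over the 6 ExE libraries, among 15458 peaks with at least 20 allelic reads in each library, and the median distance was 9.18. The nearest was at Slc38a4, which encodes an amino acid transporter (chromosome 15, 97046500 to 97062000), at a distance of 1.56 and with 79.4 to 95.8% paternal reads. Gm32885, a gene further along the same chromosome (97162500 to 97168500), followed at 2.24 with 89.1 to 93.6%. Next came Gm12569 and Platr20, the latter a noncoding RNA, on chromosome 11 (2.97, 73.5 to 96.7%), Gm13261 and the Polycomb gene Sfmbt2 on chromosome 2 (3.47, 80.4 to 89.2%), and a peak 4808 bases from Smoc1, a secreted matrix protein, on chromosome 12 (3.58, 70.1 to 98.8%). By its mean log2 ratio of 3.62, the Gab1 peak had rank 4 of the 15458. These likenesses are a description over 6 libraries that share their depth, and no test was made.

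None of the partners of Gab1 in signalling was called imprinted at a start site, a count near the background for a list of this size. The list held 32 genes: its relatives Gab2 and Gab3, adaptors and enzymes that it recruits, and the receptors and ligands upstream. Of these, 29 in ExE and 30 in epiblast had an informative peak at an annotated start of one of their transcripts, and the peak with the most allelic reads was taken. It held the 5′ end of the gene for 27 in each tissue, the others being Egf and Fgf4 in both and Grb2 in epiblast, whose peaks lay at another annotated start. In either tissue 0 were called imprinted, where 0.319% of ExE and 0.108% of epiblast peaks were, and 0 strain-specific, where 3.96% and 0.841% were. For the parent effect of both crosses 0 passed by edgeR's test, where 0.711% of ExE and 0.197% of epiblast peaks did, and the largest in size were -0.66 at the receptor Pdgfrb in ExE and 0.25 at the kinase Mapk3 in epiblast. The ligand Egf, read at a start inside the gene, passed in CAST/B6 ExE alone at 0.68 (adjusted p = 0.0123), where 5.95% of all peaks did, beside -0.21 in B6/CAST (adjusted p = 0.350). The adaptor Grb2, to which Gab1 binds, had a parent effect of 0.16 in ExE, and Ptpn11 had -0.10 in ExE and 0.06 in epiblast.

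**Figure D4:**
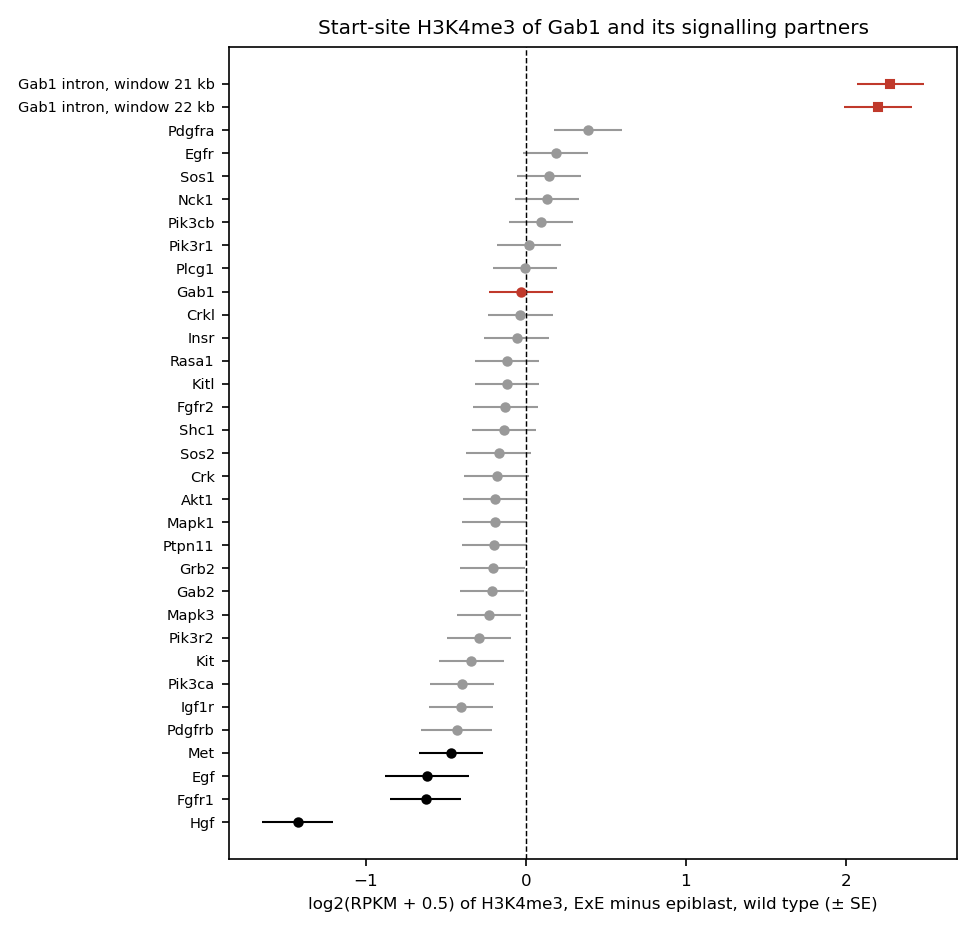
Difference of H3K4me3 between wild-type ExE and epiblast (log2 of RPKM + 0.5, x axis, ± SE) at the start-site window of Gab1 (red circle) and of the 30 tested genes of its signalling list (black where the adjusted p is below 0.05, grey otherwise), with the 2 intronic Gab1 windows as red squares. The intronic windows lie at 2.20 and 2.28, the start-site window of Gab1 at -0.03, and Hgf lowest at -1.43.

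Between the tissues, 30 start-site windows of the list were tested, of which 0 were higher in ExE by limma and 4 were lower, against 23.0% and 16.8% of all windows. The median difference was -0.19. Hgf, the ligand of Met, had 2.00 to 3.33 RPKM in wild-type ExE and 6.05 to 9.00 RPKM in epiblast and was lower by 1.43 on the log2 scale (adjusted p = 1.10e-08). Met itself was at -0.47 (adjusted p = 0.0483), the receptor Fgfr1 at -0.63 (adjusted p = 0.0165) and the ligand Egf at -0.62 (adjusted p = 0.0466). The highest values were 0.39 at the receptor Pdgfra (adjusted p = 0.132) and 0.19 at Egfr (adjusted p = 0.489). Fgf4 and Gab3 were not tested.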

How the data were processed

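The labels gave each library its group and number. The authors trimmed reads with Trim Galore 0.4.4 and aligned them with Bowtie2 2.3.2 (versions per the submitters' notes) to GRCm38 with variant bases masked, split them by allele, and called peaks in both wild-type crosses with a hidden Markov model. The deposited allelic tables hold raw read counts per peak. The deposited window table holds RPKM of all reads, and every value was a whole multiple of 1 read (tolerance 0.01), so reads were recovered from it. Peak lists with a score of 0 in each row, deposited as well, served for positions only. In matDKO/CAST, variants common to 129 and CAST were dropped and 129 reads joined the maternal counts. Inputs were not subtracted.

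Alleles were compared by edgeR 4.0.16 (quasi-likelihood, TMM, two-sided) within a cross, jointly in the reciprocal crosses (parent and strain effects), and between matDKO/CAST and B6/CAST, with Benjamini-Hochberg adjustment over all informative autosomal peaks and a threshold of 0.05. Windows with a mean of at least 0.5 RPKM were fitted by limma 3.58.1 on log2(RPKM + 0.5). Alternatives were DESeq2 1.42.0 for the allelic counts and, for windows, edgeR on recovered reads. The latter, and a spread shared over crosses, were chosen after seeing the data. The edgeR fit within a cross and the limma window fits were tested on simulated data, and the permutation tests on small made-up sets. The joint and between-cross allelic fits, DESeq2 and edgeR on recovered reads were not. Single regions were compared by exact permutation. Annotation was GENCODE vM21, and sequence and predicted starts were from RefSeq. Software was R 4.3.3, with Python 3.11.15 (pandas 2.3.3, numpy 2.4.6; scipy 1.17.1) and figures by matplotlib 3.10.9.

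Genes were named if they lie in the locus, belong to the 5 peaks most like the intronic peak, or are signalling genes with the 2 largest tissue differences in each direction. Met and both values of Egf (called), Pdgfrb and Mapk3 were added after their values were seen, and Grb2 and Ptpn11 for their role. The locus, the gene lists and the tests were chosen with earlier results of these data known. Both allele columns of a library are the same sample, which a fit with the library as a block took into account. Deviations of same-numbered wild-type H3K4me3 libraries correlated between the tissues (r = 0.172 to 0.238), which met the criterion for pairs (r over 0.1 in each), and those of the other marks and of matDKO/CAST did not (r = -0.041 to 0.069). The tests reported were planned without pairs and kept so. Fits with the pairs were alternatives, and a permutation test of the 3 pairs cannot go below p = 0.25. Peak names differed from the start and end columns for 17.9 to 28.3% of the peaks of a table, and the columns were used.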

Additional observations from a re-analysis of the deposited data

Results flagged for a closer look

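The parental bias of the H3K27me3 peak at the Gab1 start site in ExE differed between the reciprocal crosses in the edgeR fit of all 4 wild-type libraries. It was 0.06 on the log2 scale in B6/CAST and 0.86 in CAST/B6, and the term that separates them in the fit of both crosses was -0.39 ± 0.12 (CAST over B6 allele, adjusted p = 0.0111 by edgeR's quasi-likelihood test). The term did not pass under DESeq2 (adjusted p = 0.172) or by edgeR without replicate 1 or 2 of B6/CAST (-0.41 and -0.38, adjusted p = 0.0741 and 0.0841). Such a difference passed at 23.3% of the informative H3K27me3 peaks of ExE. Groups of 2 libraries are too small for a test of single outlying libraries.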

How the results depend on the processing

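The limits are 2 pools of embryos per group, few allelic reads in epiblast (18 to 99 a library at the intronic peak), the 129 step in matDKO/CAST alone and, for total signal, windows near the level of a few reads. With 1 library of a cross left out, the remaining library was assumed to vary like those of the other crosses, whose spread was shared. Of all values recomputed under the alternatives, 678 kept direction and side of the threshold, 32 no longer passed it, 24 without a test or counting windows moved and 23 turned sign. In ExE, the biases of H3K4me3 at the intronic peak and of H3K36me3 at the gene-body peak passed in each.

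Under DESeq2 the strain and parent effects of H3K27me3 in ExE no longer passed, and the intronic H3K4me3 bias in epiblast was 3.61 in CAST/B6 and 1.88 in matDKO/CAST and did not pass. The 4 wild-type libraries alone gave a gap between intronic and start-site peak of 4.12 in ExE and 3.53 in epiblast. Counts of H3K27me3 windows (2 reported) were 4 with TMM factors, 4 by edgeR and 0 without a filter. Those of H3K36me3 (11 reported) were 5 with TMM factors, 39 by edgeR, 1 without a filter, 1 with a pseudocount of 0.1 and 19 with 1 RPKM, and those of H3K4me3 (10 reported) were 6 without a filter. Values near 0 turned sign: H3K27me3 in B6/CAST ExE to -9.3e-05 without TMM factors, H3K27me3 in CAST/B6 epiblast to -0.0079 without TMM factors, -0.015 under DESeq2 and -0.020 with shared spread, and the 5′ end window of H3K4me3 to 0.00048 with TMM factors. The cause was not tested.

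Leaving out 1 library at a time, the gap between the peaks ran from 3.39 to 3.89 in ExE and from 2.38 to 3.24 in epiblast. The intronic bias in epiblast ran from 2.00 to 4.24 in B6/CAST, 2.17 to 8.61 in CAST/B6, 1.31 to 2.34 in matDKO/CAST and 2.64 to 5.94 over both wild-type crosses. Start-site H3K4me3, ExE minus epiblast, ran from -0.68 to 1.82 RPKM, and intronic H3K27me3 from -0.011 to 0.015 RPKM. The difference between matDKO/CAST and B6/CAST in H3K36me3 ran from -0.32 to 0.17. Window counts ran from 0 to 3 for H3K27me3, 1 to 42 for H3K36me3 and, between matDKO/CAST and B6/CAST in epiblast, 0 to 6 for H3K36me3, where the 6 came without replicate 3 of matDKO/CAST. Biases without a call ran from -0.45 to 0.36 (B6/CAST), -0.19 to 0.12 (CAST/B6) and -0.22 to 0.20 (both) for epiblast H3K27me3, -0.21 to 0.68 for epiblast H3K36me3 in CAST/B6, -0.36 to 1.61 for the peak at 60 kb in matDKO/CAST, -0.11 to 0.029 for the ExE start-site peak, and -0.18 to 0.12 for the 5′ end window.

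With the library as a replicate block no allelic call of the locus changed. With the numbers shared by tissues as a replicate block, 5 windows of H3K27me3, 14 of H3K36me3 and 13 of H3K4me3 (10 without the block) differed between the tissues. Between matDKO/CAST and B6/CAST the block is nested in the cross, so it was fitted as a correlation between libraries, a form chosen after seeing the data, and 0 windows were called. The paired difference in bias was 1.43 (exact p = 0.5, 3 pairs). Restricting the tissues to peaks that overlap was not run, since each has 1 intronic peak and these overlap.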
